A study of Mus musculus with 6 samples.

Results

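The genes described here encode the extracellular matrix and a growth factor receptor of connective tissue: decorin (Dcn), biglycan (Bgn), fibromodulin (Fmod), lumican (Lum), Prelp, osteoglycin (Ogn), dermatopontin (Dpt), fibrillin 1 (Fbn1), fibronectin (Fn1) and the platelet-derived growth factor receptor Pdgfra. They were picked by symbol from a table of read counts, which held all 10 of them among 54532 genes, and all 10 were among the 17340 genes tested. Bulk RNA sequencing was done on the retinal pigment epithelium (RPE), the pigmented cell layer between the photoreceptors and the choroid, of 3 Abca4-/- (Abca4KO) and 3 wild-type (WT) mice. The Abca4KO mice were the Jackson Labs line Abca4tm1Ght/J, and the WT mice the Jackson Labs strain 129S1/SvlmJ. Both had the Rpe65 Leu450 background, were kept on a standard diet under a 12-h light cycle, and gave RNA 5 h after light onset. The line and the genotype change together, so that their effects on a transcript cannot be told apart. The sources used here do not give the age or sex of the mice.

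Small leucine-rich proteoglycans are secreted core proteins, many but not all of which carry chondroitin, dermatan or keratan sulfate chains. Many of them bind collagen and control how thick its fibrils grow and how the fibrils are spaced. Fibrillins form the microfibrils on which elastic fibres are laid down and which hold latent TGF-beta in the matrix, and fibronectin is the adhesive glycoprotein that integrins pull into fibrils. In the eye these proteins are known from the sclera, the corneal stroma and the connective tissue of the choroid, and fibrillin and fibronectin are also found in Bruch's membrane, on which the RPE rests.

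The comparison asks whether the transcripts of these matrix genes differ between Abca4KO and WT RPE. Fbn1 was lower and Lum higher in all 3 Abca4KO libraries than in all 3 WT libraries, and the other 8 genes overlapped between the genotypes. By edgeR's quasi-likelihood test 0 of the 10 had an adjusted p under 0.05, against 0.0461% of all tested genes (0.0346% higher and 0.0115% lower in Abca4KO). DESeq2 and limma-voom with sample weights each called 1 of the 10, Fbn1, against 0.701% of all genes by DESeq2 and 0.179% by limma-voom. At an unadjusted edgeR p under 0.05 there were 2 of the 10, against 7.02% of all tested genes, and of these Lum was higher and Fbn1 lower (3.15% and 3.87% of all tested genes). The genotypes did not overlap in 2 of the 10 genes, against 12.8% of all tested genes (6.85% lower and 5.93% higher in Abca4KO). The median log2 fold change, Abca4KO minus WT, was 0.07 over the 10 genes and -0.01 over all tested genes, and it was positive for 7 of the 10, against 47.8% of all tested genes.

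Library totals ran from 17047286 to 19841307 counts. Levels are given as CPM, read counts scaled to a common library size, on which the floor of 3 reads was 0.152 to 0.174 CPM, a limit for counting error only. Abca4 itself measured 32.6, 39.1 and 36.8 CPM in Abca4KO replicates 1, 2 and 3, and 955, 932 and 968 CPM in WT replicates 1, 2 and 3, so each library matched its label. WT 2 and Abca4KO 1 stood apart in an earlier analysis of these data: WT 2 had the lowest RPE marker level (34954 CPM) and the highest surface epithelium marker level (505 CPM), and Abca4KO 1 the highest rod marker level (3697 CPM). Over all counts Abca4KO 1 was not apart: of all pairs of libraries, it and WT 1 differed least (chi-square per degree of freedom 12.6). All 15 RPE markers were tested, and their summed level was 41069 to 43488 CPM in Abca4KO and 34954 to 44678 CPM in WT. Of 20 other fibroblast markers, none of them among the 10 genes, 19 were tested and 0 stayed under 1 CPM in every library. The summed level of these fibroblast markers was 1514 to 1975 CPM in Abca4KO and 1187 to 1578 CPM in WT. Of 13 markers of scleral cartilage, Acan, Hapln1 and Matn1 were under 1 CPM in all libraries, and the summed level was 731 to 906 CPM in Abca4KO and 730 to 944 CPM in WT. In bulk RNA, more cells of a type and more RNA per cell cannot be told apart, and the counts do not tell which cells gave the reads.

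Decorin and biglycan, the class I proteoglycans with chondroitin or dermatan sulfate chains, were the most abundant of the 10 genes. Dcn (ENSMUSG00000019929, chromosome 10, 97479609 to 97518143, plus strand, mm10) measured 813, 1070 and 805 CPM in Abca4KO replicates 1, 2 and 3, and 858, 826 and 716 CPM in WT replicates 1, 2 and 3. Only Abca4KO 2 lay above the WT libraries, and the other Abca4KO libraries lay within their range. The log2 fold change of Dcn was 0.16 (SE 0.14, 95% interval -0.15 to 0.48), and edgeR's adjusted p was 0.856. Without Abca4KO 2 it was 0.02. By mean CPM, 0.507% of the tested genes were above Dcn.

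Bgn (ENSMUSG00000031375, chromosome X, 73483602 to 73495933, plus strand) measured 504, 727 and 598 CPM in the Abca4KO libraries, against 460, 595 and 359 CPM in the WT libraries. Its coefficient of variation, 18.4% in Abca4KO and 25.1% in WT, was the highest of the 10 genes after that of Dpt. Abca4KO 2 and 3 lay above all WT libraries, and Abca4KO 1 lay below WT 2. The log2 fold change was 0.37 (SE 0.20, 95% interval -0.10 to 0.85, adjusted p = 0.768, edgeR). It was 0.21 without WT 3 and 0.23 without Abca4KO 2 (adjusted p = 0.841 and 0.981, edgeR), 0.57 without WT 2, and 0.68 without both WT 2 and Abca4KO 1 (adjusted p = 0.313 and 0.0746, edgeR). For Bgn, WT 2 was the highest WT and Abca4KO 1 the lowest Abca4KO library.

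Lumican, fibromodulin and Prelp are the class II proteoglycans. Lumican carries keratan sulfate and keeps the corneal stroma transparent. Lum (ENSMUSG00000036446, chromosome 10, 97565128 to 97572703, plus strand) measured 114.5, 124.9 and 125.2 CPM in the Abca4KO libraries, against 107.2, 76.2 and 86.1 CPM in the WT libraries. The genotypes did not overlap, and the narrowest gap was that between Abca4KO 1 and WT 1. Lum was 1.35-fold higher in Abca4KO (log2 fold change 0.44, SE 0.13, 95% interval 0.13 to 0.74), and its edgeR p was 0.0108 before and 0.616 after adjustment over all genes.

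Fmod, whose product competes with lumican for a site on collagen, measured 70.5, 71.0 and 83.97 CPM in Abca4KO and 64.1, 74.2 and 75.9 CPM in WT. Its log2 fold change was 0.07 (SE 0.11, 95% interval -0.18 to 0.32, adjusted p = 0.923, edgeR), and it turned to -0.01 without Abca4KO 3. Prelp, which binds both collagen and the heparan sulfate of basement membranes, measured 100.5, 129.8 and 120.6 CPM in Abca4KO and 109.1, 105.5 and 93.6 CPM in WT. Abca4KO 2 and 3 were above all WT libraries and Abca4KO 1 was below WT 1 and WT 2. The log2 fold change of Prelp was 0.19 (SE 0.11, 95% interval -0.08 to 0.45, adjusted p = 0.795, edgeR). Fmod (chromosome 1, 134037254 to 134048277, plus strand) and Prelp (chromosome 1, 133910304 to 133921414, minus strand) lie near each other.

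Osteoglycin, also called mimecan, belongs to class III. Ogn (ENSMUSG00000021390, chromosome 13, 49608046 to 49624501, plus strand) measured 160.5, 154.6 and 129.6 CPM in Abca4KO, against 165.8, 155.5 and 175.999 CPM in WT. Of the 6 proteoglycan genes it alone had a negative log2 fold change, -0.16 (SE 0.10, 95% interval -0.40 to 0.08, adjusted p = 0.804, edgeR). Abca4KO 1 lay between the WT libraries and Abca4KO 2 just below all of them, so the groups overlapped.

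**Figure D1:**
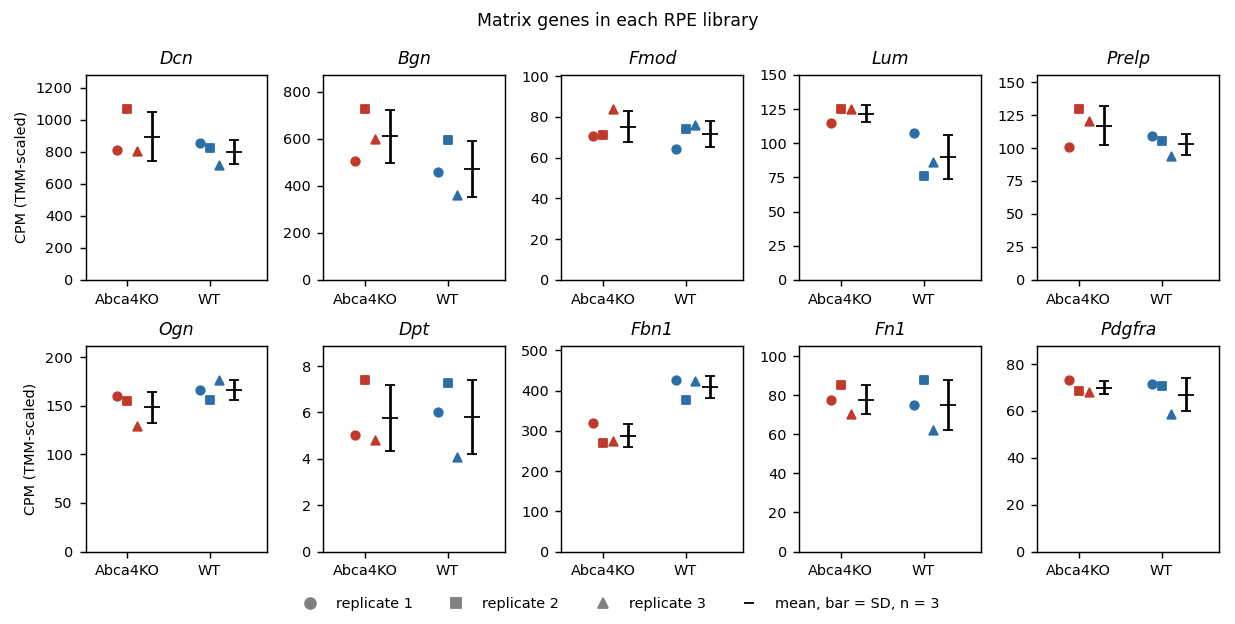
Each panel plots 1 gene in CPM, with Abca4KO libraries left in red and WT libraries right in blue, the symbol giving the replicate and the bar the mean and SD (n = 3). Fbn1 was lower and Lum higher in every Abca4KO library than in every WT library, and the other 8 genes overlapped.

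Fbn1 encodes the main fibrillin of adult tissue, the protein altered in Marfan syndrome. Fbn1 (ENSMUSG00000027204, chromosome 2, 125300594 to 125507993, minus strand) measured 320, 269 and 275 CPM in Abca4KO replicates 1, 2 and 3, against 425, 378 and 423 CPM in WT replicates 1, 2 and 3. Every Abca4KO library was below every WT library, by at least the gap between Abca4KO 1 and WT 2. The mean was 288 ± 27.9 CPM in Abca4KO and 409 ± 26.6 CPM in WT (SD, n = 3 each), 1.42-fold lower in Abca4KO. The log2 fold change was -0.50 (SE 0.10, 95% interval -0.73 to -0.28), and its edgeR p was 0.00108 before and 0.393 after adjustment. DESeq2 gave an adjusted p of 0.00283 and limma-voom with sample weights one of 0.0268, and without WT 2 and Abca4KO 1 edgeR gave 0.0277 at a log2 fold change of -0.65, a setting that called 1.09% of all genes. WT 2 was the lowest WT and Abca4KO 1 the highest Abca4KO library for Fbn1, so leaving them out had to widen the difference. With single libraries left out, edgeR's adjusted p ranged from 0.192 to 0.981. The overlapping Gm9913, on the other strand, had 44 counts over the 6 libraries, against 39198 for Fbn1.

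Fn1, fibronectin, measured 77.5, 85.3 and 70.4 CPM in Abca4KO and 75.2, 87.5 and 62.3 CPM in WT, and the WT libraries spanned the Abca4KO ones. Its log2 fold change was 0.05 (SE 0.14, 95% interval -0.27 to 0.37, adjusted p = 0.964, edgeR), and it turned negative without WT 3 (-0.06) and without Abca4KO 2 (-0.02). Dpt encodes dermatopontin, a small matrix protein that binds decorin and speeds collagen fibril assembly. It was the scarcest of the 10, with 5.02, 7.38 and 4.82 CPM (99, 143 and 83 reads) in Abca4KO, against 6.02, 7.25 and 4.08 CPM (115, 135 and 75 reads) in WT. The groups overlapped throughout, and the 95% interval of the log2 fold change ran from -0.70 to 0.68, the widest of the 10 genes. Its coefficient of variation was 24.7% in Abca4KO and 27.6% in WT. Its fitted value of -0.01 (adjusted p = 0.996, edgeR) changed sign in 5 of 14 other settings.

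Pdgfra, the receptor tyrosine kinase by which fibroblasts and their precursors are usually recognised, measured 73.0, 68.4 and 68.2 CPM in Abca4KO and 71.7, 70.5 and 58.7 CPM in WT. WT 3 was the lowest and the remaining 5 libraries lay close together. The log2 fold change was 0.06 (SE 0.10, 95% interval -0.17 to 0.29, adjusted p = 0.931, edgeR), and -0.02 without WT 3. The interval leaves room for a change of up to 1.22-fold higher or down to 0.890 of the WT level. Fn1 (71585520 to 71653200, minus strand) and Dpt (164796644 to 164824266, plus strand) lie on chromosome 1, and Pdgfra on chromosome 5 (75152292 to 75198215, plus strand).

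**Figure D2:**
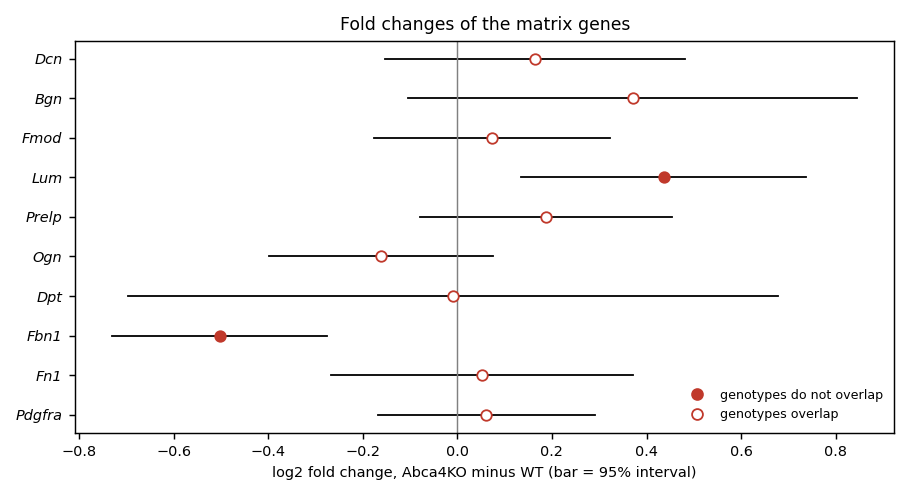
The log2 fold change of each gene, Abca4KO minus WT, is plotted with its 95% interval, and filled points mark genes whose genotypes do not overlap. Intervals of Fbn1 (-0.73 to -0.28) and Lum (0.13 to 0.74) leave out 0, and those of the other 8 genes hold it.

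Levels were compared between genes per length, as counts scaled by library size and gene model length (FPKM). Dcn was highest in every library, at 153.5 ± 25.8 FPKM in Abca4KO and 137.0 ± 12.8 FPKM in WT (SD, n = 3 each), and Dpt lowest, at 3.33 ± 0.824 FPKM in Abca4KO and 3.35 ± 0.926 FPKM in WT. In Abca4KO the order was Dcn, Bgn, Ogn, Lum, Prelp, Fbn1, Fmod, Pdgfra, Fn1 and Dpt. The library ranges of Ogn and Lum, of Fbn1 and Fmod, and of Pdgfra and Fn1 overlapped there. In WT the order differed in 1 place, with Fbn1 above Prelp, and the ranges of Bgn and Ogn, of Lum and Fbn1, and of Pdgfra and Fn1 overlapped. Fbn1 measured 23.8 ± 2.30 FPKM in Abca4KO and 33.7 ± 2.19 FPKM in WT, and Prelp 32.4 ± 4.14 FPKM in Abca4KO and 28.4 ± 2.23 FPKM in WT.

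**Figure D3:**
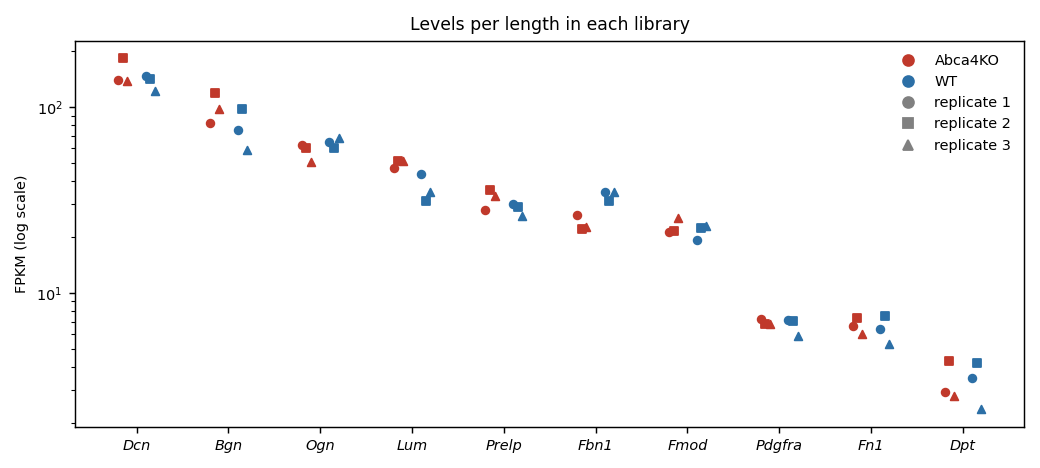
Levels per length of the 10 genes are shown on a log axis in FPKM, 1 point a library, with Abca4KO in red left of WT in blue. The genes span from Dcn (means of 153.5 FPKM in Abca4KO and 137.0 FPKM in WT) to Dpt (means of 3.33 FPKM in Abca4KO and 3.35 FPKM in WT).

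The genes did not vary as 1 block between libraries. Abca4KO 2 was the highest library in 4 of the 10 genes (Dcn, Bgn, Prelp and Dpt), and WT 3 was the lowest in 6 (Dcn, Bgn, Prelp, Dpt, Fn1 and Pdgfra). The same libraries were highest and lowest in the summed level of the other fibroblast markers, at 1975 CPM in Abca4KO 2 and 1187 CPM in WT 3. The remaining libraries had 1514 CPM (Abca4KO 1), 1817 CPM (Abca4KO 3), 1504 CPM (WT 1) and 1578 CPM (WT 2) of these markers, and their part in the results was not tested. Fbn1 ran the other way, with Abca4KO 2 the lowest library and WT 1 and WT 3 the highest. Its centred log2 level differed from the mean of the other 9 genes by 0.37 (root mean square over 6 libraries), the most of any of the 10, against 0.09 for Pdgfra, 0.10 for Dcn and Fn1 and 0.11 for Prelp.

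**Figure D4:**
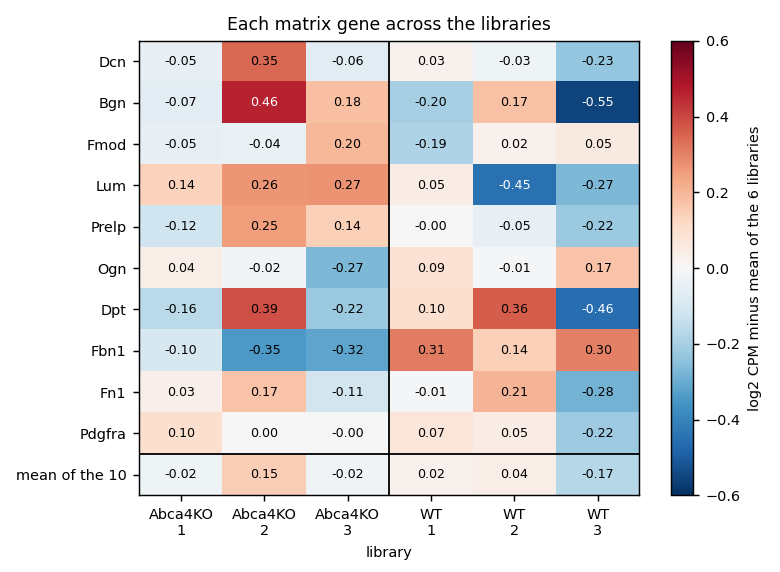
Rows are genes and columns libraries, and each cell gives log2 CPM minus the gene's mean over the 6 libraries. WT 3 is low for Bgn (-0.55) and Dpt (-0.46), Abca4KO 2 high for Bgn (0.46), and Fbn1 runs from -0.35 in Abca4KO 2 to 0.31 in WT 1.

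Among 9049 protein-coding genes of at least 10 CPM whose SD was at least 0.75 of that of the 10 genes' mean, those whose centred log2 level was nearest to the mean of the 10 genes over the 6 libraries were Ube2r2, Nop10, Bud31, Gria3, Tmem242, Blmh, Zmiz2 and Sf3b6. Their root mean square difference from it was 0.0175 to 0.0384, against a median of 0.183 over these 9049 genes, and 6 libraries allow many near matches.

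Of the 6 proteoglycan genes, 5 sit in clusters of related genes, which the choice by symbol did not use. On chromosome 10, Dcn and Lum are followed by Kera (keratocan) and Epyc (epiphycan) on the same strand, within 202846 bases. Kera measured 0.885 ± 0.317 FPKM in Abca4KO and 0.978 ± 0.0517 FPKM in WT, and Epyc 0.572 ± 0.276 FPKM in Abca4KO and 0.533 ± 0.198 FPKM in WT (SD, n = 3 each), far below their neighbours. On chromosome 1, Prelp and Fmod lie within 151079 bases together with Optc (opticin), which measured 13.5, 4.64 and 1.92 CPM in Abca4KO and 0.733, 1.02 and 3.97 CPM in WT. Abca4KO 1 alone was far above the others for Optc, and its adjusted p was 0.727 (edgeR). That library also had the most rod marker counts, 3697 CPM, against 745 to 1947 CPM in the other 5 libraries, and the part of this in the Optc level was not tested. On chromosome 13, Ogn is next to Omd (osteomodulin), Aspn (asporin) and Ecm2, which measured 4.23 ± 1.42, 7.62 ± 1.09 and 7.50 ± 0.515 CPM in Abca4KO, against 5.49 ± 0.890, 5.53 ± 1.72 and 7.72 ± 2.08 CPM in WT.

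The promoters of Fbn1, Ogn and Bgn are shown because these are both genes with the lowest log2 fold changes and the gene with the highest among those with an entry in the RefSeq table (GRCm38.p6), which held 7 of the 10 genes. Each is the 250 bases before the annotated start, 5′ to 3′ on the gene's strand, and capitals mark matches to the GC box GGGCGG or the TATA motif TATAAA on either strand.
Fbn1: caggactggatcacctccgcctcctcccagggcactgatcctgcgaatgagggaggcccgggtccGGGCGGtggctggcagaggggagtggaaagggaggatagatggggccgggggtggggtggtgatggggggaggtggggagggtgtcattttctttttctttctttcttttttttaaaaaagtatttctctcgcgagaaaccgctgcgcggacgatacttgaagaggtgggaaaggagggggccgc
Ogn: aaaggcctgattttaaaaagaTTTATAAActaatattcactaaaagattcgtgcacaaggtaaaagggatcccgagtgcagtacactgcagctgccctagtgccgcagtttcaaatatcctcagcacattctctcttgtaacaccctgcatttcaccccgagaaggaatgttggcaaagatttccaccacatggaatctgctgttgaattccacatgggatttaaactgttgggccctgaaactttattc
Bgn: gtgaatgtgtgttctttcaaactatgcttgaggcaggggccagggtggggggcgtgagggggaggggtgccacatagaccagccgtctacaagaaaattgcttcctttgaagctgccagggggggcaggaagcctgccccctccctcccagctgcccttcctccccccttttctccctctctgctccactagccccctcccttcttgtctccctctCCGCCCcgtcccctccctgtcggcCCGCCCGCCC
Fbn1 is chr2:125506439-125506688 on the minus strand, inside the longer gene model of the count table, Ogn chr13:49607765-49608014 on the plus strand and Bgn chrX:73483351-73483600 on the plus strand. Fbn1 held 1 GC box, 185 bases before the start, and Bgn held 3, at 34, 10 and 6 bases before it, of which the last pair overlap. Ogn held no GC box and 2 overlapping TATA matches on opposite strands, 227 and 229 bases before the start. A GC box lay in 32.7% and a TATA motif in 12.4% of all 32851 promoter windows of that length. The CCAAT box (CCAAT, in 33.8% of all windows), the AP-1 motif (TGACTCA, in 4.46%) and the Smad motif (CAGAC, in 42.2%) were searched too, on both strands, and had no match in these 3 windows. The GC content was 59.2% in Fbn1, 42.0% in Ogn and 64.4% in Bgn, against a median of 52.4%. These matches are descriptions of the sequence.

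Genes that work with these proteins were looked at as lists, in which no gene passed an adjusted p of 0.05. Of all tested genes, 47.8% had positive log2 fold changes. At an unadjusted edgeR p under 0.05, 3.15% of all tested genes were higher and 3.87% lower. Of 23 tested genes of fibrillin microfibrils and elastic fibres, 17 had positive log2 fold changes, with a median of 0.24, and 5 were higher and 0 lower at an unadjusted p under 0.05. Over the other settings 17 to 21 were positive. The sign of Fbn1 was thus unlike that of most of this list. Ltbp2, a latent TGF-beta binding protein of microfibrils, measured 17.3, 13.8 and 16.3 CPM in Abca4KO and 8.48, 9.56 and 7.62 CPM in WT (log2 fold change 0.89, adjusted p = 0.393, edgeR). Lox, which cross-links collagen and elastin, measured 43.5 ± 5.24 CPM in Abca4KO and 28.1 ± 4.43 CPM in WT (SD, n = 3 each). The second fibrillin gene Fbn2 measured 23.6 ± 0.721 CPM in Abca4KO and 17.04 ± 1.61 CPM in WT, and Fbln2 (fibulin 2) 22.5 ± 4.41 CPM in Abca4KO and 16.1 ± 2.22 CPM in WT (SD, n = 3 each). The genotypes did not overlap for Ltbp2, Lox and Fbn2, and overlapped for Fbln2.

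Of 24 genes of fibrillar collagens and their processing, 19 were positive, with a median of 0.11, and 16 to 20 over the other settings. At an unadjusted p under 0.05, 4 were higher and 0 lower. Those 4 were Col3a1 and Col1a1, chains of the collagens that the proteoglycans bind, Col14a1, a fibril-associated collagen, and the lysyl hydroxylase Plod1. Col3a1 measured 169.5 ± 6.06 CPM in Abca4KO and 115.1 ± 11.6 CPM in WT (SD, n = 3 each, adjusted p = 0.279, edgeR). Col1a1 measured 230, 299 and 290 CPM in Abca4KO, against 207, 214 and 161 CPM in WT, without overlap. The fibroblast marker list shares Col1a1, Col1a2, Col3a1, Col5a1 and Col14a1 with the collagens, and Mfap4, Mfap5 and Fbln1 with the microfibril list. These shared genes were all positive, so the lists are not independent. Of 19 tested fibroblast markers, 17 were positive (median 0.20). That count ranged from 12 to 18 over the other settings.

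The other 13 small proteoglycan genes were mixed, 7 positive and 6 negative (median 0.08), and 5 to 10 were positive over the other settings. This list includes Esm1, a proteoglycan with no leucine-rich repeats. Chad, chondroadherin, measured 10.04 ± 1.46 CPM in Abca4KO and 6.16 ± 2.16 CPM in WT (SD, n = 3 each), narrowly without overlap, and Podn (podocan) 15.7 ± 0.432 CPM in Abca4KO and 12.3 ± 3.12 CPM in WT. Of 23 tested genes that build glycosaminoglycan chains, 15 were positive (median 0.11), and 14 to 18 over the other settings. At an unadjusted p under 0.05, 3 were higher and 1 lower. The 1 that was lower was Xylt1, which adds the first sugar of the chain, at 47.4 ± 6.99 CPM in Abca4KO and 63.7 ± 7.13 CPM in WT (SD, n = 3 each, adjusted p = 0.616, edgeR). Those higher were the sulfotransferase Chst1, Csgalnact1, which starts chondroitin chains, and B3gat3, which completes the linker, at 55.1 ± 4.15 CPM in Abca4KO and 47.3 ± 3.23 CPM in WT.

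Among 10 fibronectin receptor genes, which are integrin chains and the syndecan Sdc4, 5 were positive and 5 negative (median 0.01). Over the other settings 4 to 8 were positive, with 8 without WT 2. At an unadjusted p under 0.05, 0 were higher and 2 lower. The 2 that were lower were Itgav and Itgb8, which pair as a receptor that activates latent TGF-beta. Itgb8 measured 2190 ± 303 CPM in Abca4KO and 2856 ± 186 CPM in WT, and Itgav 738 ± 35.9 CPM in Abca4KO and 917 ± 64.0 CPM in WT (SD, n = 3 each, adjusted p = 0.625 and 0.616, edgeR). Itga5, the classical fibronectin receptor chain, measured 39.0 ± 7.55 CPM in Abca4KO and 30.5 ± 10.3 CPM in WT, and Itga4 36.2 ± 5.65 CPM in Abca4KO and 57.2 ± 38.97 CPM in WT, where WT 2 alone had 101.8 CPM.

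Of 15 tested genes of the TGF-beta pathway, 9 were negative and 6 positive (median -0.15), and 4 were lower and 0 higher at an unadjusted p under 0.05. Thbs1, thrombospondin 1, an activator of latent TGF-beta, measured 1216, 879 and 1086 CPM in Abca4KO, against 1504, 1755 and 1339 CPM in WT, without overlap (log2 fold change -0.53, adjusted p = 0.616, edgeR). The ligand Tgfb2 measured 46.5 ± 3.37 CPM in Abca4KO and 63.7 ± 13.1 CPM in WT, the co-receptor Tgfbr3 166 ± 8.11 CPM in Abca4KO and 198 ± 7.35 CPM in WT, and the signal transducer Smad3 56.1 ± 4.94 CPM in Abca4KO and 65.9 ± 3.41 CPM in WT (SD, n = 3 each). The count of positive genes ranged from 6 to 9 over the other settings, so that the majority turned in at least 1 of them. Of the 6 PDGF ligands and other receptors, 5 were positive (median 0.08), and 4 to 5 over the other settings. None had an unadjusted p under 0.05 in edgeR. The PDGF ligands Pdgfc, Pdgfb and Pdgfa measured 37.8 ± 0.851, 17.95 ± 4.16 and 70.1 ± 6.12 CPM in Abca4KO. In WT they measured 32.1 ± 4.28, 13.7 ± 5.74 and 67.7 ± 0.855 CPM.

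**Figure D5:**
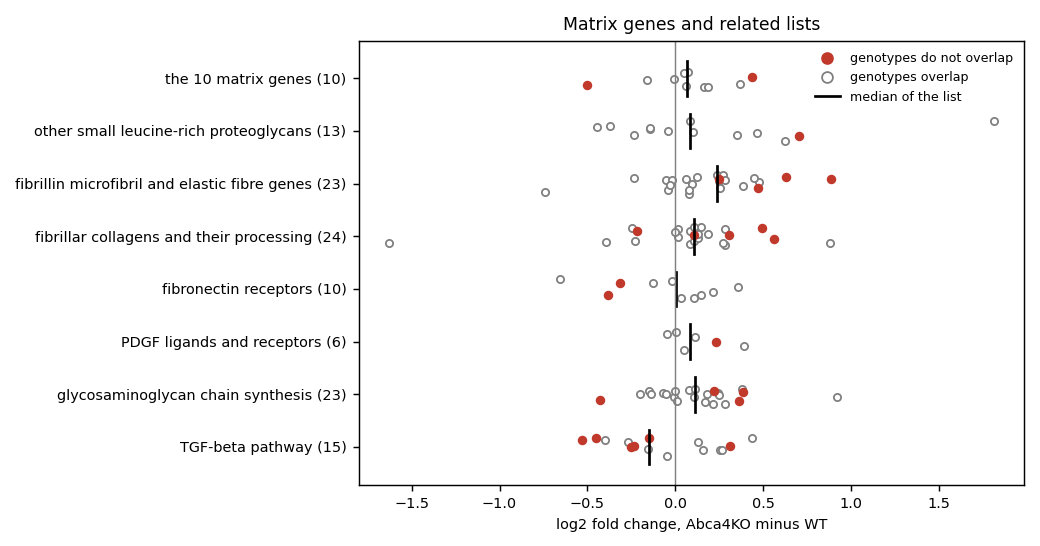
Each point is a gene of the list named at the left (number tested in brackets), placed by its log2 fold change, Abca4KO minus WT, with filled points for genes whose genotypes do not overlap and a bar at the list's median. Fbn1, at -0.50, lies on the other side of 0 from the median of the microfibril list (0.24).

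Markers of other cell types differed between the libraries as well, and the summed levels of the mural and melanocyte lists did not overlap between the genotypes. All 17 endothelial markers were positive (median 0.61), with summed levels of 847 to 1261 CPM in Abca4KO and 518 to 858 CPM in WT. At an unadjusted edgeR p under 0.05, 9 of them were higher and 0 lower, against 3.15% and 3.87% of all tested genes. Of 12 tested mural cell markers 10 were positive, at 800 to 910 CPM in Abca4KO and 597 to 758 CPM in WT, and 6 of 8 melanocyte markers, at 6833 to 9411 CPM in Abca4KO and 4566 to 6560 CPM in WT. Macrophage markers (12 of 16 positive) summed to 1802 to 3048 CPM in Abca4KO and 1167 to 2492 CPM in WT, and Schwann cell markers (5 of 8) to 1011 to 1866 CPM in Abca4KO and 1054 to 1587 CPM in WT. Rod markers (14 of 15 positive, median 0.44) summed to 1117 to 3697 CPM in Abca4KO and 745 to 1947 CPM in WT. Surface epithelial markers (1 of 7 positive, median -1.56) summed to 49.7 to 141 CPM in Abca4KO and 56.4 to 505 CPM in WT. Muller glia and astrocyte markers (2 of 9 positive, median -0.22) summed to 10386 to 12608 CPM in Abca4KO and 10561 to 11788 CPM in WT. The corneal stroma list (2 of 5 positive, median -0.14) summed to 15926 to 17436 CPM in Abca4KO and 15161 to 17390 CPM in WT, while its keratocyte gene Kera averaged 2.02 CPM in Abca4KO and 2.23 CPM in WT, and Chst5 was under 1 CPM in all libraries. Some markers are shared: Sox10 is in both the melanocyte and the Schwann cell list, and Rlbp1 in both the Muller glia and the RPE list. A summed level thus need not come from the cell type that names the list. The part of these cells in the levels of the matrix genes was not tested.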

How the data were processed

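Per the labels' protocols, total RNA came from the RNAqueous-Micro kit, and NEBNext Ultra was the library kit. The authors deposited raw read counts per gene, not normalized, with a gene model length, and the submitters' processing notes name STAR, HTSeq and mm10 without versions. The strand setting and annotation release are not given in the sources used here, so reads of overlapping genes on opposite strands cannot be separated. Partners of the 10 genes held at most 0.923% of the gene's own count, and in GENCODE M21 transcripts (blastn 2.17.0, at least 90% identity over 300 bases) only Gm9913, Gm42802 and Gm15851, which overlap Fbn1, Pdgfra and Prelp, matched. A small partner count does not show whether reads falling on both genes were left uncounted, and Gm9913 matched Fbn1 over 2442 bases. Coordinates of all 10 genes are the same in GENCODE M21.

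Genes were filtered with filterByExpr (minimum count 10), library sizes were scaled by TMM, and the genotypes were set against each other with the 2-sided quasi-likelihood test of edgeR 4.0.16 (R 4.3.3) over all 6 libraries, with Benjamini-Hochberg adjustment over 17340 genes and a threshold of 0.05. Log2 fold changes use a prior count of 0.125, log2 levels one of 1. SEs and 95% intervals were derived from each gene's F statistic. DESeq2 1.42.0, limma 3.58.1 (voom with sample weights), other size factors and filters, the replicate number as a block and left-out libraries were the alternatives. The series design gives 3 mice a genotype as replicates, and all pairs differed by more than counting noise (chi-square per degree of freedom at least 12.6).

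The genes and lists were chosen with earlier results of these data known. All 10 genes, up to 4 genes of each pathway list by smallest p, and the 8 genes of nearest pattern were named by rule. Omd, Ecm2, Kera, Epyc and the ratios in the closing section were chosen after values were seen. The symbols Adamtsl6 and Ccn2 matched no row, and other names of these genes were not searched, so both were left out of their lists.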

Additional observations from a re-analysis of the deposited data

How the results depend on the processing

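Over 14 other settings, the sign and the side of the threshold of the log2 fold change were kept in 128 of 140 values for the 10 genes. Dcn, Bgn, Lum and Prelp were positive and Ogn and Fbn1 negative in all 14. Fbn1 passed the threshold in 3 of them, and the other 9 genes in 0. The values that changed sign were Fmod at -0.013 without Abca4KO 3, Pdgfra at -0.020 and Fn1 at -0.059 without WT 3, Fn1 at -0.017 without Abca4KO 2, and Dpt at 0.02, 0.18, 0.08 and 0.10 without WT 1, WT 2, Abca4KO 1 and Abca4KO 3, and 0.26 without WT 2 and Abca4KO 1. With single libraries left out, Dcn ranged from 0.019 to 0.236, Bgn from 0.215 to 0.573, Lum from 0.3303 to 0.5836, Prelp from 0.108 to 0.286, Ogn from -0.222 to -0.073, Fbn1 from -0.585 to -0.455, Fmod from -0.013 to 0.125, Pdgfra from -0.020 to 0.113, Fn1 from -0.059 to 0.177 and Dpt from -0.228 to 0.185. The cause was not tested.

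The 8 genes past the threshold over the whole table became 19 with no filter on low counts, 114 with DESeq2, 31 with limma-voom and sample weights and 190 without WT 2 and Abca4KO 1, and lay between 3 and 11 with single libraries left out. Of the 10 matrix genes, 1 passed with DESeq2, with limma-voom and without WT 2 and Abca4KO 1, and 0 passed in each of the fits without 1 library. Genes at an unadjusted p under 0.05 numbered 1217, against 2938 with limma-voom (16.9% of all), 2848 (16.4%) without WT 2 and Abca4KO 1, and 761 to 1906 with single libraries left out. Among the 10, those were 2, against 5 with limma-voom and 5 without WT 2 and Abca4KO 1, and 2 to 3 with single libraries left out. Genotypes not overlapping numbered 2 of the 10, 2 to 5 with single libraries left out (4 without WT 2, 5 without Abca4KO 1) and 5 without WT 2 and Abca4KO 1. Fewer libraries overlap less often: of all tested genes 28.0% did not overlap without WT 2, 25.6% without Abca4KO 1 and 48.2% without both, against 12.8% over all 6 libraries. The median log2 fold change of the 10 was 0.07, between 0.037 and 0.181 with single libraries left out and 0.20 without WT 2 and Abca4KO 1. Lists and shares of all genes were recounted under the same settings after the data were seen.

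Same-numbered libraries deviated together with correlations of 0.17, 0.34 and -0.08, and not every library correlated best with its own number. With 3 libraries a genotype, these values cannot show whether the numbers pair the mice. With the replicate number as a block, 9 genes and 0 of the 10 passed, and Fbn1 had an adjusted p of 0.349. The gene model lengths equalled the union of annotated exons, so this alternative could not change the levels per length. Such a union can be longer than a single transcript, and Fn1 has 17 annotated transcripts, against 1 each for Lum, Ogn and Dpt. The order of the genes at other lengths was not tested. Groups of 3 are too small for a test of single outlying libraries, and none was run.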

Other observations

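Ratios between the matrix genes within a library do not depend on how libraries are scaled. The ratio of Fbn1 to Lum, in FPKM, was 0.565, 0.436 and 0.443 in Abca4KO replicates 1, 2 and 3, against 0.801, 1.00 and 0.991 in WT replicates 1, 2 and 3. All Abca4KO libraries were below all WT libraries, which follows from Fbn1 being lower and Lum higher in each Abca4KO library. The ratio of Fbn1 to Fbn2, the fibrillins of adult and of developing tissue, was 10.6 ± 1.35 in Abca4KO and 20.8 ± 1.16 in WT (SD, n = 3 each), also without overlap between libraries. Fbn2 was higher in every Abca4KO library, so this separation too was fixed by the levels already given. Fbn1 over Bgn was 0.320, 0.186 and 0.232 in Abca4KO and 0.465, 0.319 and 0.591 in WT. Here the genotypes overlapped, as Abca4KO 1 (0.3197) lay just above WT 2 (0.3194). The 6 ratios given here were chosen after their values were seen and carry no test.

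Within the proteoglycans, Bgn over Dcn was 0.593, 0.650 and 0.711 in Abca4KO and 0.513, 0.690 and 0.481 in WT, with overlap at WT 2. Lum over Dcn, the neighbours on chromosome 10, was 0.336, 0.278 and 0.371 in Abca4KO and 0.298, 0.22 and 0.287 in WT, and Abca4KO 2 lay among the WT libraries. Fmod over Prelp, the pair on chromosome 1, was 0.709 ± 0.0958 in Abca4KO and 0.766 ± 0.122 in WT (SD, n = 3 each), a difference smaller than the spread.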
